A study of Mus musculus with 9 samples.

Results

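RNA was measured in bone marrow-derived mast cells (BMMCs), mast cells grown from the marrow of C57BL/6 mice in medium conditioned by WEHI-3 cells, which supplies IL-3. The comparison described here set 3 libraries of cells sensitized with IgE and stimulated with the antigen DNP-BSA (BSA, labelled IgE+BSA) against 3 libraries of cells that had the same stimulation and also luteolin (BSA + luteolin). The treatment note, which is printed alike for all samples, gives 10 µM luteolin and 24 h. The study compares with vehicle-treated cells but does not say what the vehicle was, and its descriptions of these libraries place luteolin before the antigen in some passages and after it in others. These 6 libraries were chosen by their labels from the 9 in the series, and 3 Control libraries of cells labelled with neither antigen nor luteolin are given beside them as levels. All 9 came from cultures kept in the same medium, so the Control cells received its IL-3 source and serum too. No label says whether the 3 libraries of a group came from separate mice or cultures, so the p-values measure the spread between these libraries, which may be technical.

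Mast cells carry granules loaded with proteases, histamine and proteoglycan, and bind IgE through a receptor whose cross-linking by antigen starts tyrosine kinase, calcium and MAP kinase signals. Within minutes these signals switch on immediate early genes, which encode transcription factors and the inhibitors of the same signals, and within hours the genes of cytokines, chemokines and lipid mediator enzymes follow. Many of these transcripts carry AU-rich elements, and decay factors remove them quickly. Luteolin is a plant flavone studied as an inhibitor of mast cell activation.

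The files listed 47643 genes, and the 11560 with a median above 1 CPM over the 9 libraries entered edgeR's quasi-likelihood test, with p-values adjusted by Benjamini and Hochberg. CPM stands for counts scaled to the size of the library, so that levels compare between libraries. Total counts were 21545516 to 23633717 in BSA and 20125034 to 24605689 in BSA + luteolin, so that 3 counts, taken as the lowest level a library could show, were 0.121 to 0.150 CPM for counting error alone. All 10 mast cell markers passed this filter, 2 of them lower and 5 higher, with a summed level of 62827.6 to 69213.8 CPM in BSA and 74024.1 to 84792.6 CPM in BSA + luteolin. Markers of dendritic cells, B cells and T cells each summed to at most 1.20 CPM in these 6 libraries, with Cd209a, Ms4a1 and Cd3e at 0. The 6 neutrophil markers summed to 174 to 190 CPM in BSA and 200 to 231 CPM in BSA + luteolin, with 2 of 6 higher, and to 5.85 to 243 CPM in Control. All 3 basophil markers were higher (1446 to 1504 against 1610 to 1754 CPM), and the macrophage, erythroid and megakaryocyte lists held no gene that passed. Of 4 eosinophil markers 1 was lower (27.4 to 29.5 CPM in sum against 22.7 to 30.4 CPM). The part of these markers in the results below was not tested. Control replicate 1 stood apart from the other Control libraries. Over all tested genes, each scaled to unit variance, its Euclidean distance from the BSA + luteolin mean was 133, and from the mean of Control replicates 2 and 3 it was 204.

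At an adjusted p under 0.05, 2562 of the 11560 genes (22.2%) fell with luteolin and 2060 (17.8%) rose. The sizes were not alike. Among lower genes the median log2 fold change was -0.49, and 609 of them passed a 2-fold change (5.27% of all tested), whereas the higher genes had a median of 0.30 and 44 passed a 2-fold change (0.381%). Of the 609 genes, 476 were protein coding, and of the 44 only 15 were, beside 17 pseudogenes. The median over all genes was 0.01. Scaling by library size alone moved it to 0.13 and scaling with upper-quartile factors to 0.09, which turned the calls to 1767 lower and 3857 higher, and to 2019 lower and 3267 higher. The lower share of all calls was 55.4%, 31.4% and 38.2% under the 3 scalings. Changes below are given relative to TMM scaling. The genes lower past 2-fold numbered 513 to 609 under the 3 scalings. The higher genes numbered 1319 without BSA replicate 1, 1259 without BSA + luteolin replicate 1 and 1243 without BSA + luteolin replicate 2. Direction also moved with transcript length, which is shown in the plot by bins of exonic length. The median exonic length was 5821 bases among lower genes, 3212.5 among higher genes and 4397 among all. Its part in the calls was not tested beyond a fit with the length trend removed, which called 2321 lower and 1757 higher. Among genes described below, the lower genes Syk, Mitf and Becn1 did not pass in that fit, nor did the higher genes Ccl6, Srm, Eif5a, Phgdh, Rgs18, Orai3, Cnot8, Taldo1, Fcgr3, Fcer1g, Btk, Lat, Spi1, Vamp8, Calr, Pdia4, Cct6a, Hspd1, Hspe1 and Aldh3a1.

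**Figure D1:**
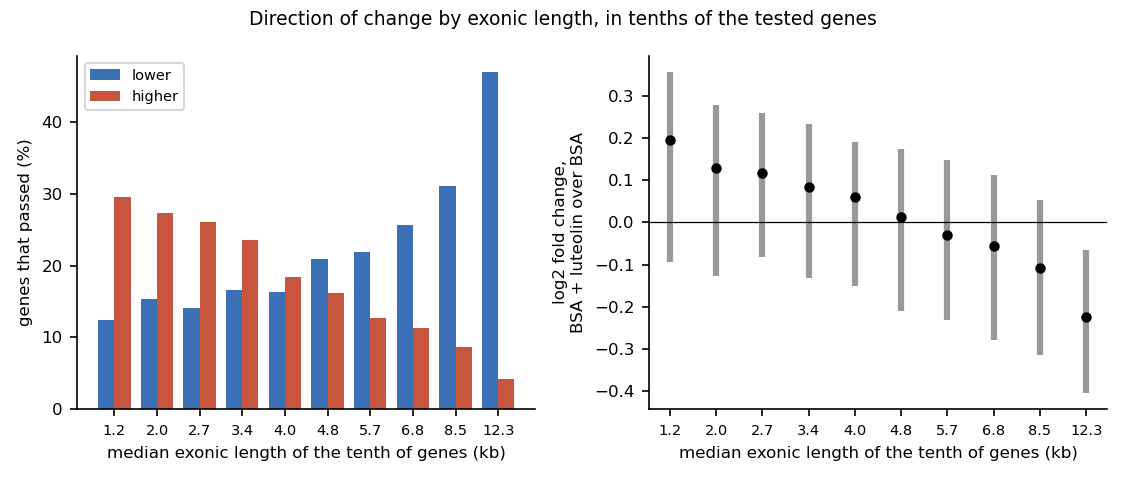
Left, percentage of tested genes that fell (blue) or rose (red) with luteolin, in 10 bins of equal gene number by exonic length. Right, the median (point) and quartiles (grey line) of the log2 fold change in the same bins. The share of lower genes goes from 12.5% in the bin of shortest genes to 47.0% in that of the longest, and the share of higher genes from 29.6% to 4.25%.

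The genes were read in 43 lists of known function, of which 42 held at least 1 lower and 38 at least 1 higher gene. In what follows, a number in parentheses with no unit is the log2 fold change of BSA + luteolin over BSA. The counts in each list are to be read against the shares over all genes, 22.2% and 17.8%, and those of small rises depend on the scaling. The plot orders the lists by the share of higher minus the share of lower members. It places cytokines, immediate early factors, noncoding host RNAs and growth factors at the lower end, and proteasome subunits, granule proteases and nucleotide synthesis at the higher end.

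**Figure D2:**
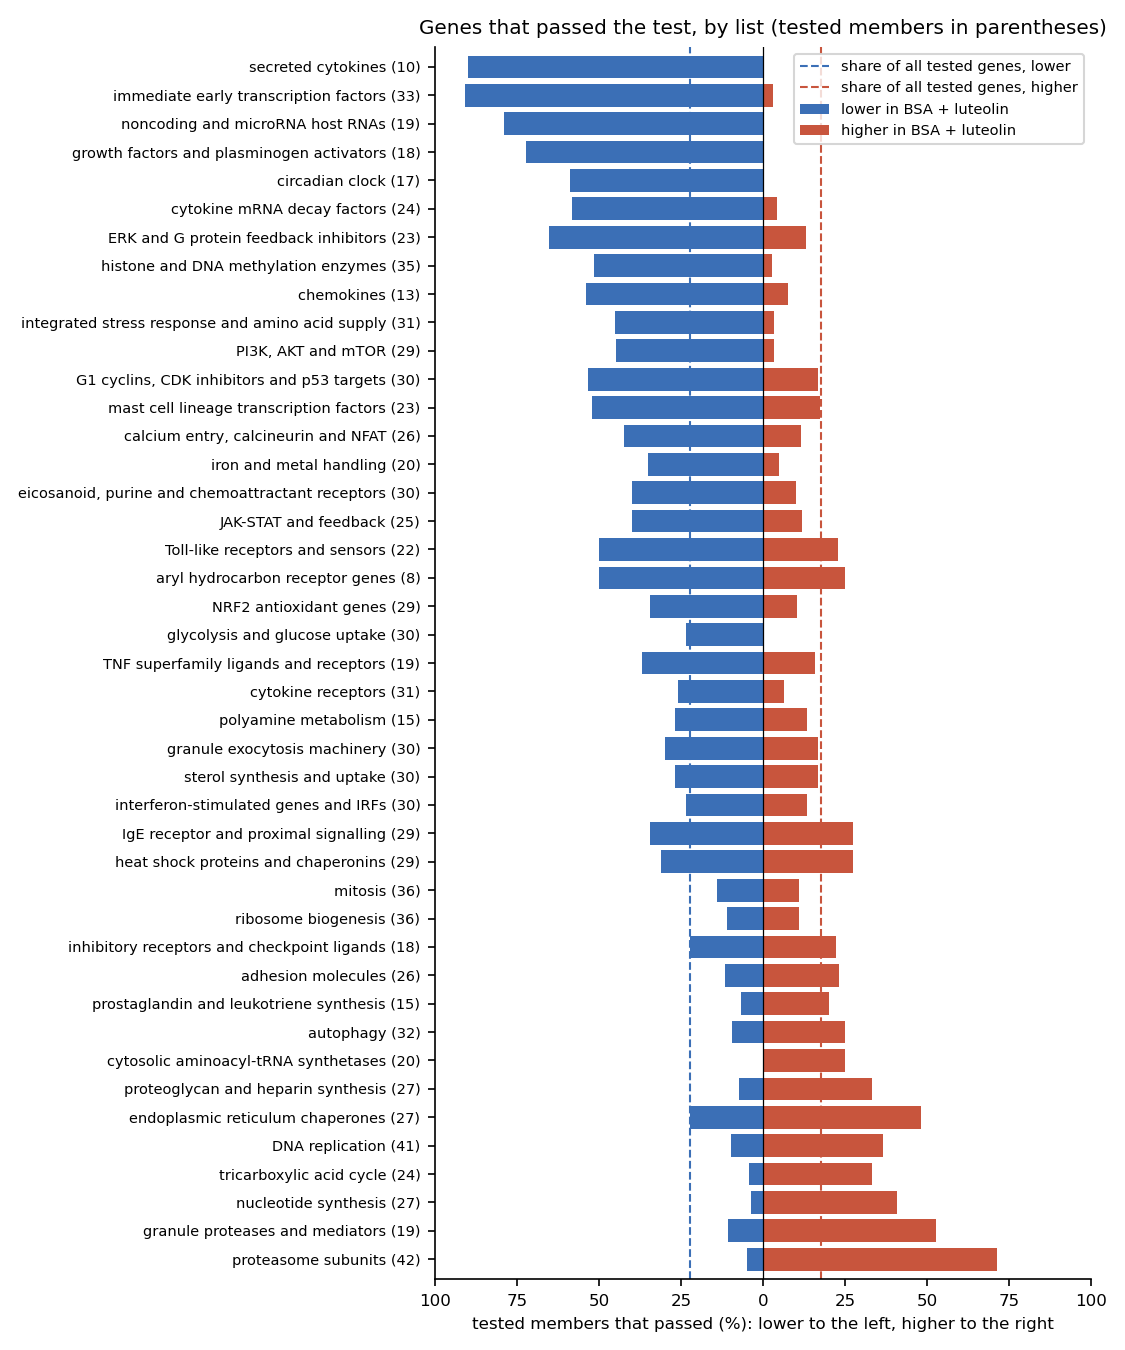
Percentage of the tested members of each list that passed the test as lower (blue, to the left) or higher (red, to the right) with luteolin. Dashed lines mark the shares over all 11560 genes, 22.2% and 17.8%.

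Among secreted mediators, 9 of the 10 cytokine genes tested were lower and 7 passed a 2-fold change, with a list median of -1.89. Csf2, which encodes the growth factor GM-CSF (ENSMUSG00000018916, chromosome 11 of GRCm38 from 54247271 to 54249667), was at 56.1, 59.9 and 58.1 CPM in BSA and 4.24, 3.72 and 4.45 CPM in BSA + luteolin (log2 fold change -3.81, standard error 0.098, adjusted p = 1.13e-14). This was a 14.1-fold difference, and every BSA library lay above every BSA + luteolin library. In Control it was at 4.28, 0.0969 and 0.124 CPM, and the value of Control 1 was near those of BSA + luteolin. Lif, an IL-6 family cytokine, was at 2416, 2627 and 2501 CPM in BSA and 423, 417 and 509.8 CPM in BSA + luteolin (log2 fold change -2.48), and Control spanned 325 to 689 CPM. Il6 went from 1584, 1510.2 and 1568 to 322, 302 and 327 CPM (-2.29). The type 2 cytokines Il13 and Il4 had log2 fold changes of -2.18 and -2.03. Il13 was at 134, 135 and 114 CPM in BSA + luteolin, above the Control range of 25.3 to 73.8 CPM, whereas Il4 at 22.6, 24.2 and 21.9 CPM lay in or just under the Control range of 22.7 to 30.9 CPM. Osm, Il1a, Il1rn and Tgfb1 were also lower (-1.75, -1.53, -0.997 and -0.15). Il3, the growth factor of these cultures, did not pass (log2 fold change -0.28, standard error 0.34, adjusted p = 0.532), at 1.54, 1.60 and 3.22 CPM in BSA and 2.14, 1.498 and 1.60 CPM in BSA + luteolin, and its libraries overlapped. Il5 was below the filter.

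Chemokine genes were lower in 7 of 13 tested and higher in 1. The 7 were the CC chemokines Ccl4, Ccl3, Ccl1, Ccl7 and Ccl2 (log2 fold changes -2.602 to -1.43) and the neutrophil attractants Cxcl1 and Cxcl3 (-1.22 and -0.54). Ccl4 was at 489, 463 and 482 CPM in BSA and 84.8, 80.6 and 70.8 CPM in BSA + luteolin, still above the 20.6 to 35.8 CPM of Control. Ccl6, which Control cells also made at 1551 to 1979 CPM, was the 1 member that rose (log2 fold change 0.15, standard error 0.051, adjusted p = 0.0292), and did not pass with the length trend removed. Cxcl10, below the filter and without a test, had 172 counts in the BSA libraries together and 20 in those with luteolin.

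Growth factors and regulators of plasminogen activation were lower in 13 of 18 tested members and higher in 0, with a median of -0.65. Plau and Plaur, the activator uPA and its receptor, fell (-0.69 and -0.40). Inhba, an activin subunit, and Hbegf, an EGF receptor ligand, had log2 fold changes of -2.80 and -2.31, and Vegfa and Areg of -1.09 and -0.68. Fst, which encodes the activin-binding protein follistatin, fell as well (-2.66), from 4.93, 3.10 and 5.41 to 0.839, 0.648 and 0.628 CPM.

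In the TNF superfamily, 7 of 19 tested were lower and 3 higher, with a median of 0.01. The costimulatory ligands Tnfsf9 (4-1BBL) and Tnfsf14 (LIGHT) were lower by 4.62-fold and 3.64-fold. Tnfrsf12a, the receptor of TWEAK, was at 8.27, 6.80 and 7.90 CPM in BSA, 8.61, 6.68 and 5.69 CPM in Control and 2.28, 2.87 and 1.74 CPM in BSA + luteolin. Its Control and BSA libraries overlapped, and BSA + luteolin lay below both.

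The immediate early transcription factors were lower in 30 of 33 tested members, 26 of them past a 2-fold change, against 22.2% and 5.27% of all genes, and 1 was higher. Their median was -1.86. Nr4a3, an orphan nuclear receptor (ENSMUSG00000028341, chromosome 4 of GRCm38 from 48045153 to 48086447), was at 699, 566 and 752 CPM in BSA and 34.7, 46.4 and 57.8 CPM in BSA + luteolin (log2 fold change -3.86, standard error 0.14, adjusted p = 6.65e-13). Its relatives Nr4a1 and Nr4a2 fell by less, with log2 fold changes of -1.08 and -1.07. Nr4a1 remained at 1104, 1172 and 1199 CPM, above the 315 to 644 CPM of Control. Fosl1 and Maff, basic leucine zipper factors of the AP-1 and MAF families, fell as well (-3.59 and -3.33). Egr1, the founding member of a zinc finger family of growth signals, fell less than most of the list (log2 fold change -0.79, standard error 0.072, adjusted p = 1.97e-07), at 3006, 3498 and 3262 CPM in BSA and 1803, 1731 and 2119 CPM in BSA + luteolin. Egr4, below the filter, had 323 counts in the BSA libraries together and 21 in those with luteolin. Batf, which pairs with JUN proteins, was the member that rose, from 38.7, 42.8 and 42.2 to 50.8, 58.0 and 55.2 CPM (0.41).

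Krüppel-like factors, zinc finger factors of growth arrest and differentiation, were counted by their symbols after the values were seen. Of the 12 tested genes of the Klf family, some of them in the list above, 10 were lower and 0 higher, 9 past 2-fold, with a median of -2.18. Klf9, a target of glucocorticoid receptor in many tissues, was at 115, 103 and 116 CPM in BSA and 14.1, 15.5 and 18.7 CPM in BSA + luteolin (log2 fold change -2.79, standard error 0.091, adjusted p = 2.03e-13). The wider zinc finger family with Zfp symbols held 290 tested genes, of which 81 were lower (27.9%) and 16 higher, with a median of -0.15.

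The genes that restrain the same signals were lower in 15 of 23 tested members and higher in 3, with a median of -0.77. Dusp6, a cytosolic phosphatase of ERK (ENSMUSG00000019960, chromosome 10 of GRCm38 from 99263231 to 99267489), was at 252, 265 and 243 CPM in BSA and 28.9, 31.0 and 33.1 CPM in BSA + luteolin (log2 fold change -3.03, standard error 0.067, adjusted p = 1.68e-15), below the 58.0 to 75.6 CPM of Control. Dusp2, Dusp1, Dusp4, Dusp5, Dusp10 and Dusp16 also fell (-4.08 to -1.64). Dusp2 had 180 counts in the BSA libraries together and 11 in those with luteolin, where replicate 1, at 0.0466 CPM, was under its 3-count level of 0.140 CPM, so that its fitted change is imprecise. Dusp8 did not reach the filter, at 344 counts in the BSA libraries together and 2 in those with luteolin. The 3 members that rose were Dusp7, Rgs14 and Rgs18 (0.44, 0.29 and 0.16). Spry2 and Spry1, Sprouty inhibitors of RAS signalling, and Errfi1, an inhibitor of EGF receptor, had log2 fold changes of -2.77, -1.94 and -2.85.

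Trib1, a pseudokinase that brings substrates to the ubiquitin ligase COP1, had the largest fall among the protein-coding genes named outside the lists. It was at 24.0, 21.3 and 23.9 CPM in BSA, 4.62, 2.32 and 2.597 CPM in Control and 0.979, 1.05 and 1.498 CPM in BSA + luteolin (log2 fold change -4.30, standard error 0.16, adjusted p = 1.34e-12). The same rule named Adamts1, a secreted protease of proteoglycans, Htr1b, a serotonin receptor, Ccn1, a matricellular protein, Marcksl1, a MARCKS-related actin regulator, Noct, which acts on NADP(H) dinucleotides, and Trem1, an amplifying receptor of myeloid cells. Their log2 fold changes were -4.20, -3.76, -3.56, -3.13, -3.05 and -2.93. Marcksl1 was at 98.0, 90.6 and 103 CPM in BSA and 11.3, 11.98 and 10.1 CPM in BSA + luteolin, with no overlap. Sertad1, a cofactor of cyclin D kinases and E2F, was at 24.7, 26.8 and 23.7 CPM in Control, 22.5, 23.6 and 21.8 CPM in BSA and 4.19, 3.85 and 2.42 CPM in BSA + luteolin. Its Control libraries all lay above its BSA libraries, which lay above those with luteolin.

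**Figure D3:**
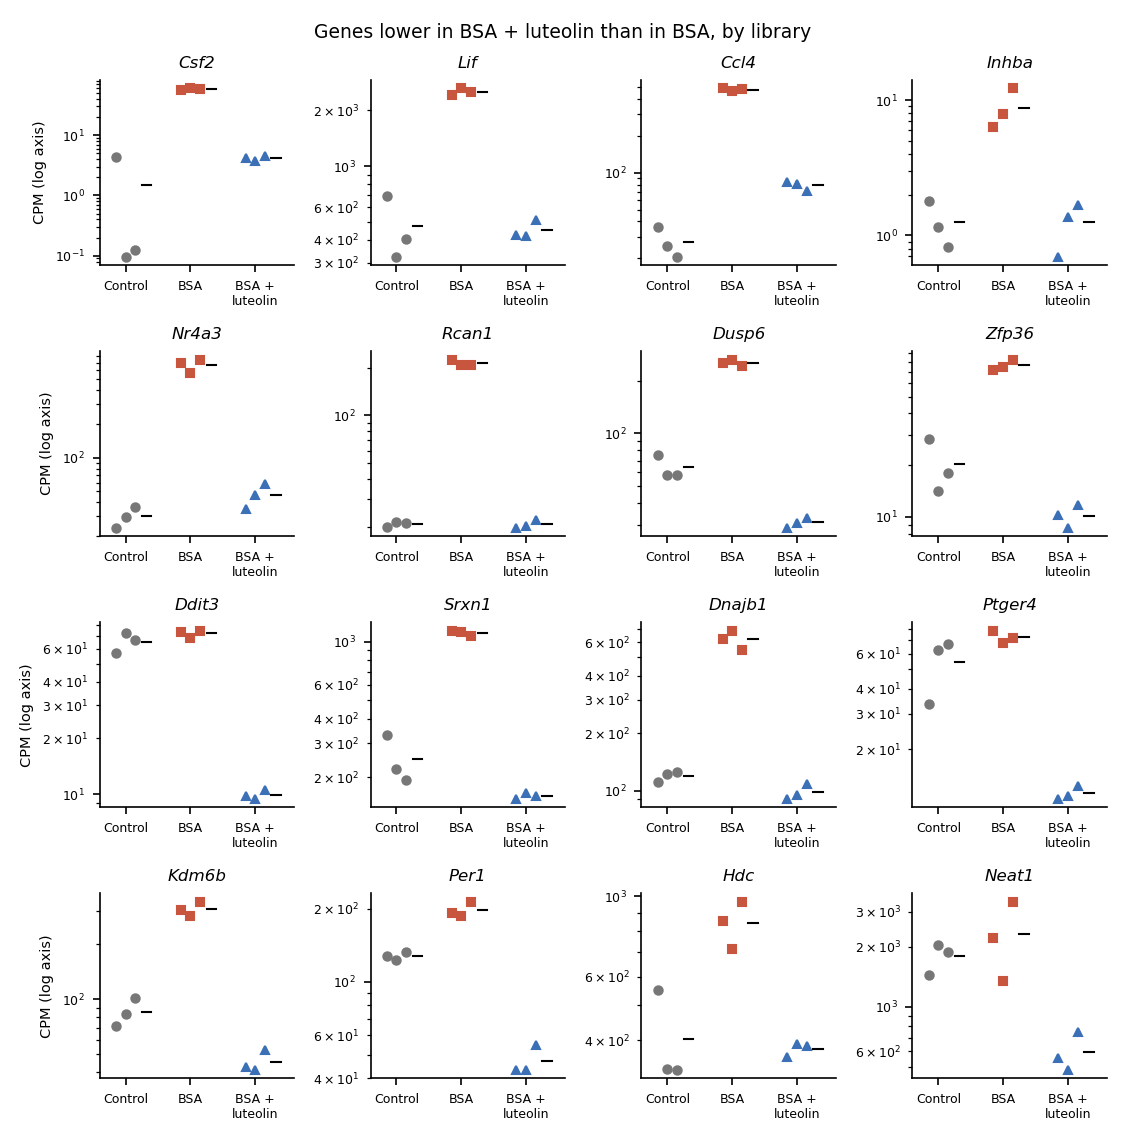
TMM-normalized level in CPM, on log axes, of 16 genes that fell with luteolin. Grey circles are Control, red squares BSA and blue triangles BSA + luteolin, 3 libraries each, and short lines are group means. In every panel all BSA + luteolin libraries lie below all BSA libraries, and for Dusp6, Zfp36, Ddit3, Srxn1, Dnajb1, Ptger4, Kdm6b, Per1 and Neat1 they also lie below all Control libraries.

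In the calcium list the largest change was in a feedback gene. Rcan1, the calcineurin inhibitor whose gene NFAT switches on (ENSMUSG00000022951, chromosome 16 of GRCm38 from 92391953 to 92470867), was at 225, 207 and 208 CPM in BSA and 19.7, 20.1 and 22.0 CPM in BSA + luteolin (log2 fold change -3.37, standard error 0.069, adjusted p = 6.55e-16). The Control libraries were at 20.0, 21.5 and 21.1 CPM, and their range overlapped that of BSA + luteolin. Of the 26 tested genes for calcium channels, stores, calcineurin and NFAT, 11 were lower and 3 higher, and the median was -0.14, which became -0.0031 with the length trend removed. With library size as the scaling 6 were lower and 5 higher. The store-operated channel gene Orai1 fell by a little (-0.51), while its relative Orai3 and the calcineurin subunit Ppp3ca rose (0.22 and 0.23). In the cytokine signalling list, 10 of 25 were lower, led by the repressor Bcl6 and the feedback inhibitors Socs3 and Cish (-2.34, -1.86 and -1.04). Stat5a was among the 3 that rose (0.23), which were 7 with library size as the scaling.

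Of 24 tested factors of cytokine mRNA decay, 14 were lower, 1 was higher and 9 did not pass, with a median of -0.30 (-0.18 with the length trend removed). With library size as the scaling 10 were lower and 5 higher. Zfp36, the AU-rich element binding protein tristetraprolin, was at 71.6, 74.99 and 82.4 CPM in BSA and 10.2, 8.66 and 11.7 CPM in BSA + luteolin (log2 fold change -2.91, standard error 0.10, adjusted p = 3.85e-13). Zfp36l1 and Zfp36l2 of the same family had log2 fold changes of -2.24 and -0.97. The endonuclease genes Zc3h12c and Zc3h12a (Regnase-1) fell (-3.00 and -1.80), as did Rc3h1 (Roquin-1, -0.55) and the antiproliferative deadenylase partners Btg1 and Tob1 (-1.22 and -1.29). Of the CCR4-NOT subunits, Cnot7 was lower (-0.54) and Cnot8 higher (0.26).

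Noncoding RNAs were lower in 15 of 19 tested members of their list and higher in 0, with a median of -0.87. Neat1, the scaffold of nuclear paraspeckles, was at 2226, 1354 and 3367 CPM in BSA and 557, 483 and 748 CPM in BSA + luteolin (-1.96). It was lowest in BSA replicate 2 and highest in BSA replicate 3, and every BSA library exceeded every BSA + luteolin library. Malat1, a nuclear speckle RNA, went from 308, 235 and 406 to 95.3, 76.8 and 150.1 CPM (log2 fold change -1.56). The transcripts that host microRNAs moved alike. Mir17hg, Dleu2, Mir155hg, Mir142hg and Mir22hg had log2 fold changes of -2.88, -1.56, -1.56, -1.60 and -1.52. Mir142hg stood outside the lists and was added after its values were seen. Mir17hg was at 10.2, 5.95 and 14.9 CPM in BSA and 0.885, 1.498 and 1.84 CPM in BSA + luteolin. RefSeq places 21 mature microRNAs inside these 5 hosts on their strand, and the better known arms are printed here 5′ to 3′, with the seed, bases 2 to 8, in capitals, to show which of them share a seed.

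miR-17-5p: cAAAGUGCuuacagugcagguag
miR-20a-5p: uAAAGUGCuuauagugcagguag
miR-18a-5p: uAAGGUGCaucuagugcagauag
miR-19a-3p: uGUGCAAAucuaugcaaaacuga
miR-19b-3p: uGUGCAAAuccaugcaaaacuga
miR-92a-3p: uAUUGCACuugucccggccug
miR-155-5p: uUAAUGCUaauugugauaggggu
miR-142a-3p: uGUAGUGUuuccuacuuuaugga
miR-22-3p: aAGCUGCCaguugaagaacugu
miR-15a-5p: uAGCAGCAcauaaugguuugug
miR-16-5p: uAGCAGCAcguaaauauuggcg

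The pairs miR-17-5p and miR-20a-5p, miR-19a-3p and miR-19b-3p, and miR-15a-5p and miR-16-5p each share a seed, and the rest of those printed have seeds of their own. The first 6 lie within Mir17hg on chromosome 14, between 115043684 and 115044496 on the plus strand, and miR-15a-5p and miR-16-5p within Dleu2 on the minus strand of the same chromosome. These mature RNAs were not measured by the libraries.

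Promoters of the genes that moved were also compared, in the 250 bases before the first start that RefSeq lists for each gene (GRCm38.p6), which 8931 of the tested genes had. Motifs were searched on both strands. The AP-1-like motif TGANTCA, in which N is any base, was in 4.35% of 1955 promoters of lower genes and 3.65% of 1616 of higher genes. It was in 4.21% of all, so that the groups were close. In the same order the cAMP response element TGACGTCA was in 4.14%, 1.61% and 2.78%, the TATA box TATAAA in 6.96%, 6.31% and 6.02%, the CArG box in 1.33%, 0.866% and 1.05%, the kappa B site in 5.88%, 3.71% and 4.39%, and the ETS site CCGGAAGT in 5.73%, 7.30% and 6.55%. In the 418 promoters of genes lower past 2-fold, these shares were 7.18%, 4.07%, 11.96%, 2.63%, 6.46% and 4.31%. Shares were not computed for the genes higher past 2-fold. These shares are a description and no site was shown to be used. The median GC content was 60.0% in the promoters of genes lower past 2-fold and of all genes, 62.8% in those of all lower genes and 58.8% in those of higher genes. For each motif a different named gene whose 150 bases before the start hold it is shown. These need not be the genes with the largest changes. The match to that motif alone is in capitals. The match in Zfp60 is on the opposite strand.

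Rnd3, chr2:51149112-51149261, minus strand: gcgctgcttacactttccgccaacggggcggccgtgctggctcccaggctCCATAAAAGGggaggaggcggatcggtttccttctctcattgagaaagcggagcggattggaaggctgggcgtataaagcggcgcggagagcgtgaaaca
Plk2, chr13:110394894-110395043, plus strand: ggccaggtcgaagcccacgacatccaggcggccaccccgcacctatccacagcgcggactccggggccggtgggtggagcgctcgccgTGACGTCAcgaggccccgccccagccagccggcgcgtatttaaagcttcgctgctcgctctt
Klf9, chr19:23141076-23141225, plus strand: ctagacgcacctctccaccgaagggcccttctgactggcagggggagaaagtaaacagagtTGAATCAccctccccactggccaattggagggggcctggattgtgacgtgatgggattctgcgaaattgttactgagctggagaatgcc
Il6, chr5:30012964-30013113, plus strand: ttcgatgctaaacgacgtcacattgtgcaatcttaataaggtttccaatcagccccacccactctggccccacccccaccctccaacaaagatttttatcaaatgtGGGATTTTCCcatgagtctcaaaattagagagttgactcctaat
Adamts1, chr16:85803114-85803263, minus strand: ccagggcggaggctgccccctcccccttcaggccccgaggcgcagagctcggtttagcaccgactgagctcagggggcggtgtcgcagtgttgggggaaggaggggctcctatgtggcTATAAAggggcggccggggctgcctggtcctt
Zfp60, chr7:27731259-27731408, plus strand: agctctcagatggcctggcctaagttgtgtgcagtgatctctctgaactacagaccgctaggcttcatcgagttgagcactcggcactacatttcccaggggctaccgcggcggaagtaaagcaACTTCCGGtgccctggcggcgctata

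Rnd3, which encodes a small GTPase, is shown for the CArG box, and Plk2, a polo-like kinase, for the cAMP response element. Klf9 is shown for the AP-1-like motif, with A as its middle base, Il6 for the kappa B site and Adamts1 for the TATA box. The higher gene Zfp60, a zinc finger protein, is shown for the ETS site. The matches begin 100, 62, 89, 44, 32 and 26 bases before the start, in that order.

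Several stress pathways held genes that fell. In the integrated stress response and amino acid list, 14 of 31 were lower and 1 higher, or 9 higher with library size as the scaling. Ddit3, which encodes the stress factor CHOP (ENSMUSG00000025408, chromosome 10 of GRCm38 from 127290774 to 127296288), was at 74.0, 68.7 and 75 CPM in BSA and 57.0, 73.2 and 66.6 CPM in Control, which overlapped, and at 9.83, 9.47 and 10.5 CPM in BSA + luteolin (log2 fold change -2.87, standard error 0.082, adjusted p = 3.6e-14). Ddit4, an inhibitor of mTORC1, was at 141, 146 and 140.2 CPM in BSA and 23.7, 23.8 and 23.0 CPM in BSA + luteolin (-2.599). Slc7a11, the cystine carrier, Trib3 and Sesn2 fell (-1.75, -1.67 and -1.30), and so did the leucine carrier Slc7a5 (-0.66). Asns, the asparagine synthetase and a textbook target of ATF4, did not pass (log2 fold change 0.071, standard error 0.060, adjusted p = 0.365), at 144, 133 and 143 and 151, 153 and 138 CPM, and Phgdh of serine synthesis rose (0.21) but did not pass with the length trend removed. Of 20 cytosolic tRNA synthetases, 5 were higher, by log2 fold changes of 0.17 to 0.20, and 0 were lower. The higher genes were 25% of them, against 17.8% of all genes, and numbered 14 with library size as the scaling and 13 with upper-quartile factors.

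In the list of NRF2 genes, 10 of 29 were lower, 3 higher (11 with library size as the scaling), and the median was 0.01. Srxn1, which repairs oxidized peroxiredoxins (ENSMUSG00000032802, chromosome 2 of GRCm38 from 152105516 to 152111376), was at 1138, 1117 and 1069 CPM in BSA and 155, 167 and 160.4 CPM in BSA + luteolin (log2 fold change -2.78, standard error 0.057, adjusted p = 6.55e-16). Hmox1, heme oxygenase-1, was at 219, 214 and 200 and 60.4, 62.5 and 54.5 CPM (-1.84), and Osgin1, Txnrd1 and Gclc fell as well (-2.33, -1.15 and -0.40). Nqo1 did not pass (log2 fold change 0.17, standard error 0.072, adjusted p = 0.066), and Gsto1, Taldo1 and Prdx1 rose by 1.32, 1.20 and 1.18-fold. Slc30a1, a zinc exporter, fell (-1.62), and the metal-binding genes Mt2, Mt1, Fth1 and Ftl1 were among 7 lower of 20 in iron and metal handling (-1.19, -0.92, -0.52 and -0.43), where Steap3, an iron reductase, was the 1 that rose (0.24).

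Of 29 heat shock genes and chaperonins 9 were lower and 8 higher, or 15 higher with library size as the scaling. Dnajb1, the HSP40 cochaperone, was at 621, 688 and 548 CPM in BSA and 90.7, 94.6 and 108 CPM in BSA + luteolin (log2 fold change -2.66, standard error 0.084, adjusted p = 1.29e-13), and its relative Dnajb4, the inducible HSP70 gene Hspa1b and the cochaperone Bag3 fell (-1.60, -2.24 and -0.49). The chaperonin subunits Cct3, Cct6a, Cct7 and Cct8 and the mitochondrial Hspd1 and Hspe1 rose, with log2 fold changes of 0.16 to 0.26. In the list of endoplasmic reticulum chaperones 6 of 27 were lower and 13 higher. Dnajb9, Herpud1, Ero1l, Xbp1, Syvn1 and Hspa5 were the 6 lower (-1.29 to -0.25), and the lectin and disulfide isomerase genes Calr, Canx, Pdia3, Pdia4 and Pdia6 were among those that rose (0.14 to 0.34). Pdia3 was at 1062, 1068 and 1034 CPM in BSA and 1408, 1348 and 1237 CPM in BSA + luteolin.

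Of 8 tested genes tied to the aryl hydrocarbon receptor, a sensor of flavonoids and other aromatic ligands, 4 were lower and 2 higher. Tiparp and Ahr itself fell (log2 fold change -1.18, standard error 0.063, adjusted p = 1.46e-10, and -1.06 for Ahr). The higher genes were Aldh3a1, an aldehyde dehydrogenase gene, and Lpcat2, a lysophospholipid acyltransferase gene (0.29 and 0.32, adjusted p = 0.0362 and 0.00121). Cyp1b1, a monooxygenase gene that the receptor activates, did not pass (log2 fold change -0.88, standard error 0.39, adjusted p = 0.0809). It was at 3.25, 2.05 and 1.80 CPM in BSA and 1.96, 0.567 and 1.40 CPM in BSA + luteolin, which overlapped, and at 3.89, 19.9 and 20.2 CPM in Control.

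Of 30 genes of glycolysis and glucose uptake, 7 were lower (23.3%, near the 22.2% of all genes) and 0 higher. The higher genes numbered 10 with library size as the scaling and 4 with upper-quartile factors. The 7 were Hk2, the carriers Slc2a3 and Slc2a1, the regulators Pfkfb2 and Pfkfb3, and Hif1a and Egln3 of the oxygen response. Hk2, hexokinase 2, was at 425, 427 and 434 CPM in BSA and 160.1, 168 and 172 CPM in BSA + luteolin (log2 fold change -1.36, standard error 0.054, adjusted p = 1.97e-12). Of 24 genes of the tricarboxylic acid cycle, 8 were higher and 1 lower, with a median of 0.11, and 16 were higher with library size as the scaling. Mdh1, cytosolic malate dehydrogenase, was at 169, 171 and 152 CPM in BSA and 238, 224 and 191 CPM in BSA + luteolin (0.41). In polyamine metabolism Odc1, Sat1, Azin1 and Amd1, were lower (-1.40, -1.89, -0.72 and -0.32), and Srm and Eif5a higher (0.17 and 0.17). With the length trend removed 5 of the 15 genes of this list were lower and 0 higher. In sterol synthesis and uptake, 8 of 30 were lower (26.7%, against 22.2% of all genes) and 5 higher, with a median of 0.09. The lower genes held the SREBP2 targets Insig1, Hmgcs1 and Idi1 (-0.98, -0.65 and -0.52) and Mylip, a ubiquitin ligase (-1.20). The 5 that rose included Acat2 and Ebp, enzymes of acetyl-CoA transfer and sterol synthesis, and Abcg1, a sterol exporter (0.48, 0.31 and 0.35), and numbered 12 with library size as the scaling.

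In the list of G1 regulators and p53 targets, 16 of 30 were lower and 5 higher. Cdkn1a, the inhibitor p21, was at 1287, 1279 and 1219 CPM in BSA and 577, 581 and 558 CPM in BSA + luteolin (log2 fold change -1.14, standard error 0.051, adjusted p = 1.18e-11), and Mdm2, Gadd45a, Plk2 and Plk3 fell as well (-1.21, -1.22, -2.83 and -2.35). Plk3, a polo-like kinase, went from 1026, 1057 and 1118 to 199, 193 and 234 CPM. Myc, a growth factor-responsive regulator, fell (-1.08), and the kinase genes and partners Cdk4, Ccnd3 and Cdc25a rose (0.28, 0.30 and 0.42). DNA replication genes were higher in 15 of 41 and lower in 4, with a median of 0.15, and 31 were higher with library size as the scaling. Rpa3 and Rpa2, subunits of the single-strand DNA binding complex, were among the higher members (log2 fold change 0.64, standard error 0.10, adjusted p = 0.000139, and 0.47 for Rpa2). Pcna, the sliding clamp, and Orc1, of the origin recognition complex, went the other way. Pcna was at 759, 785 and 695 CPM in BSA and 445, 439.5 and 397 CPM in BSA + luteolin (-0.81), and Orc1 fell 2.49-fold. Mitotic genes were lower in 5 and higher in 4 of 36, but lower in 3 and higher in 16 with library size as the scaling, and 5 and 15 with upper-quartile factors.

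In nucleotide synthesis 11 of 27 were higher and 1 lower, with a median of 0.14 that was also 0.14 with the length trend removed, and 20 were higher with library size as the scaling. Tyms, thymidylate synthase, was at 105, 101.0 and 105 CPM in BSA and 137, 141 and 136 CPM in BSA + luteolin (log2 fold change 0.42, standard error 0.054, adjusted p = 1.56e-05), and Nme1 rose beside it (0.40). Of 42 proteasome subunits 30 were higher (71.4%) and 2 lower. Their log2 fold changes were small, with a median of 0.22, and at most 0.45, that of the immunoproteasome subunit Psmb9, which was at 32.01, 32.1 and 26.2 CPM in BSA and 42.7, 41.3 and 38.9 CPM in BSA + luteolin. Proteasome transcripts are short (median exonic length 2884 bases). With the length trend removed the median was 0.10 and 13 of the 42 subunits were higher, a smaller share than in several other lists. In that fit 1757 of all 11560 genes were higher.

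Of 30 tested receptors for eicosanoids, purines and chemoattractants, 12 were lower and 3 higher, with a median of -0.09, which was 0.02 with library size as the scaling. Ptger4, the prostaglandin E2 receptor EP4, was at 78.1, 67.4 and 71.9 CPM in BSA and 33.4, 62.6 and 66.6 CPM in Control, and at 11.3, 11.7 and 13.0 CPM in BSA + luteolin (log2 fold change -2.596, standard error 0.087, adjusted p = 2.58e-13). The complement receptor genes C3ar1 and C5ar1, the histamine receptor Hrh1, the adenosine receptors Adora2b, Adora3 and Adora2a and the chemokine receptor Cxcr4 were among the others lower (-1.93, -0.87, -1.41, -1.24, -1.001, -0.56 and -1.61). P2rx4, an ATP-gated channel, rose (0.33). Among cytokine receptors, 8 of 31 were lower (25.8%, near the 22.2% of all genes), led by Il7r, Il10ra and Il18r1 (-1.78, -1.28 and -1.09). Il10rb, the partner chain of Il10ra, was higher (0.50). With library size as the scaling 4 were lower and 8 higher.

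Of 18 inhibitory receptors and ligands 4 were lower and 4 higher, 22.2% each and so near the shares of all genes. Havcr2 (TIM-3) was at 899, 735 and 960.1 CPM in BSA and 209, 216 and 246 CPM in BSA + luteolin (log2 fold change -1.95, standard error 0.087, adjusted p = 9.93e-12), and the sialic acid receptors Cd33 and Siglecf fell (-1.78 and -1.08). Milr1, the allergin-1 receptor of mast cells, and Fcgr3 and Fcgr2b, which bind IgG, rose (0.42, 0.28 and 0.16). Of 22 innate sensors and adaptors, 11 were lower and 5 higher, or 7 and 7 with library size as the scaling. Nlrp3, the inflammasome sensor, was at 693, 688 and 710.5 CPM in BSA and 197, 215 and 221 CPM in BSA + luteolin (-1.73), and its adaptor Pycard rose (0.40). Tlr4 fell and its partner Ly96 (MD-2) rose (-0.92 and 0.73). Cd69, an early activation marker, was the adhesion list's largest fall, from 1354, 1442 and 1377 to 407, 387 and 392 CPM (-1.81). Cd63, which reaches the surface when granules fuse, rose at the RNA level (0.43), from 1479, 1545 and 1386 to 2063, 2076 and 1796 CPM.

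In the list of the IgE receptor and its proximal signals 10 of 29 were lower and 8 higher, or 7 and 13 with library size as the scaling. The 3 receptor chains rose, with Fcer1a at 4919.5, 4976 and 4587 CPM in BSA and 6879, 6688 and 5720.4 CPM in BSA + luteolin (ENSMUSG00000005339, chromosome 1 of GRCm38 from 173221284 to 173227214, log2 fold change 0.41, standard error 0.064, adjusted p = 8.88e-05) and log2 fold changes of 0.30 for Ms4a2 and 0.29 for Fcer1g. The kinase gene Syk was slightly lower and Btk and the adaptor Lat slightly higher (-0.17, 0.17 and 0.20). The ubiquitin ligases Cbl and Cblb, which end the signal, and the adaptors Lcp2 (SLP-76) and Gab2 fell (-0.47, -0.43, -0.76 and -0.43). Kit, the stem cell factor receptor, and Gata2 did not pass (-0.11 and -0.055, adjusted p = 0.0869 and 0.422), and Mitf was slightly lower (-0.19). Of the lineage factors, 12 of 23 were lower, led by Bhlhe40 (-1.53) with Runx1 and Hes1 (-0.67 and -0.87), and 4 rose, Lyl1, Gata1, Myb and Spi1 (0.53, 0.28, 0.19 and 0.17).

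Of 19 tested genes of granule proteases and mediators, 10 were higher and 2 lower, with a median of 0.20, which was 0.04 with the length trend removed, when 7 were higher and 4 lower. Cpa3, carboxypeptidase A3, was at 24808, 25527 and 23045 CPM in BSA and 33664, 31663 and 28402 CPM in BSA + luteolin (log2 fold change 0.35, standard error 0.060, adjusted p = 0.000223). The chymase genes Mcpt1, Mcpt2 and Mcpt4 rose by 1.43, 1.36 and 1.34-fold. Mcpt2 was at 3207, 3252 and 2931 CPM in BSA and 4525, 4400.4 and 3879 CPM in BSA + luteolin, and in Control at 4550.4, 180.4 and 158 CPM, where replicate 1 stood far above the other Control libraries. Hdc, which makes histamine, was at 854, 715 and 966 CPM in BSA and 359.7, 389.8 and 384 CPM in BSA + luteolin (log2 fold change -1.16, standard error 0.082, adjusted p = 6.43e-09). Tpsab1, the tryptase mMCP-7, fell to 219, 218 and 219 CPM from 559, 469 and 611 CPM (-1.32) while the tryptase Tpsb2 rose (0.32). These tryptase genes are alike in sequence, and how reads that match several places were counted is not given in the sources used here. In heparin and proteoglycan synthesis 9 of 27 were higher and 2 lower, and 17 were higher with library size as the scaling. Extl2, Chst12 and B3galt6 rose by the most (0.57, 0.48 and 0.48), and Hs3st1 and Xylt1, which make a heparan sulfotransferase and the enzyme that starts the chains, were the 2 lower (-0.68 and -0.46). In the exocytosis machinery 9 of 30 were lower, with Rab27b and Vamp2 among them (-0.50 and -0.51), and 5 were higher, with Vamp8 and Stx3 among them (0.21 and 0.33). With library size as the scaling 5 were lower and 14 higher.

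**Figure D4:**
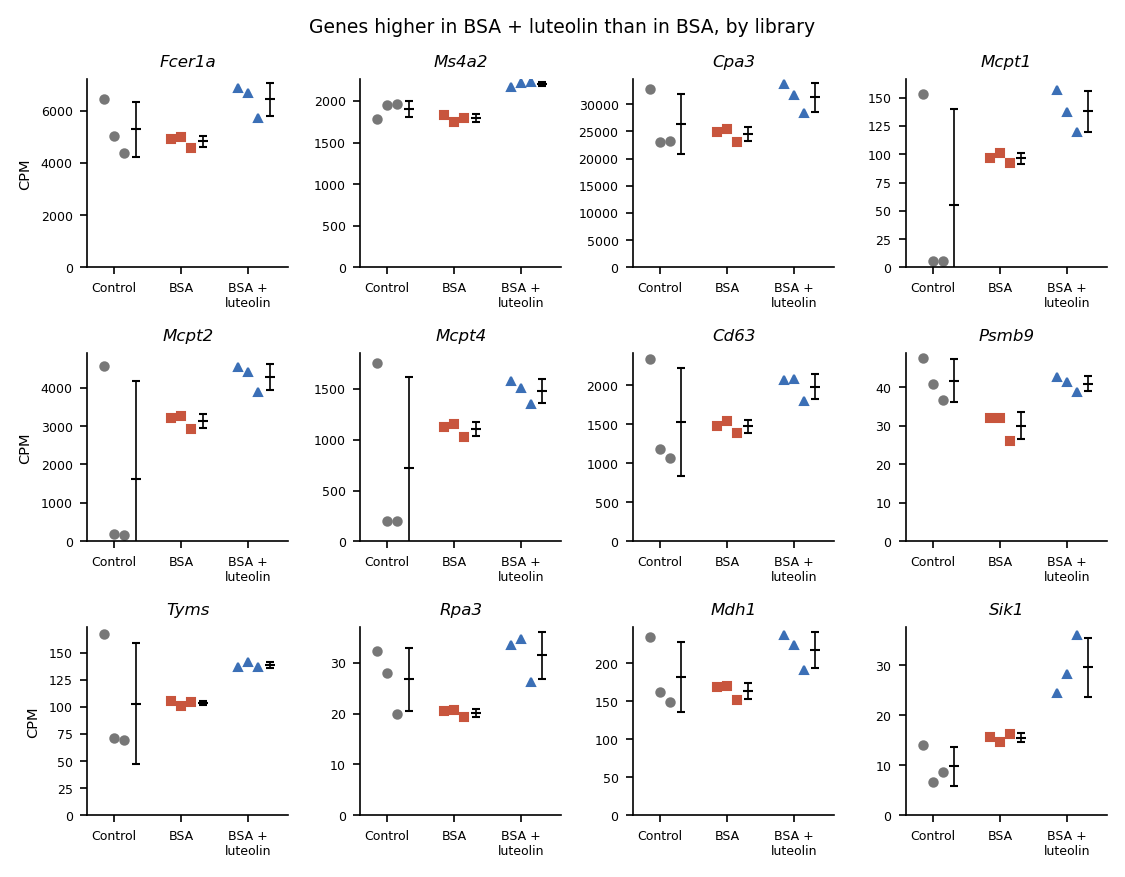
TMM-normalized level in CPM, on linear axes from 0, of 12 genes that rose with luteolin. Symbols are as for the lower genes, and bars give the mean and SD of 3 libraries, clipped at 0. The BSA + luteolin libraries lie above the BSA libraries in every panel, and for Mcpt1, Mcpt2 and Mcpt4 Control replicate 1 lies far above the other Control libraries.

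Kdm6b, the demethylase of histone H3 lysine 27, was at 307, 283 and 339 CPM in BSA and 42.5, 41.2 and 53.1 CPM in BSA + luteolin (log2 fold change -2.77, standard error 0.090, adjusted p = 1.9e-13), and its relative Kdm6a fell by less (-0.29). Of 35 histone and DNA methylation enzymes, 18 were lower, 1 was higher and 16 did not pass, with a median of -0.28. Their transcripts are long (median exonic length 9596 bases). With the length trend removed the median was -0.09, with 10 lower and 4 higher. Of 17 clock genes, 10 were lower, 0 higher and 7 did not pass, with a median of -0.56. Per1, a repressor of the clock, was at 192, 186 and 213 CPM in BSA and 128, 123 and 132 CPM in Control, and at 43.3, 43.4 and 54.8 CPM in BSA + luteolin (-2.07), below every Control library. Per2, Ciart and Cry2 fell (-1.89, -2.01 and -1.28). Histone genes, a family counted by symbol after the values were seen, were lower in 6 of 7 and higher in 0, with a median of -1.08.

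In the PI3K, AKT and mTOR list 13 of 29 were lower and 1 higher, with a median of -0.21. Sgk1, a serum- and glucocorticoid-induced kinase, was at 16.8, 14 and 15.02 CPM in BSA and 2.28, 2.19 and 2.66 CPM in BSA + luteolin (log2 fold change -2.69, standard error 0.16, adjusted p = 4.46e-10), and Rictor of mTORC2 fell by less (-0.53). Autophagy genes were higher in 8 of 32 and lower in 3, the receptors Sqstm1 (p62) and Tax1bp1 (-0.99 and -0.81) and Becn1 (-0.17). Of 30 interferon-responsive genes, 7 were lower (23.3%, near the 22.2% of all genes) and 4 higher, the latter being 8 when scaled by library size. Rsad2 and Irf1 were at the lower end (-1.49 and -1.07) and Usp18 at the higher end (0.38). Prostaglandin and leukotriene synthesis had 1 lower and 3 higher of 15, and ribosome biogenesis 4 lower and 4 higher of 36. With library size as the scaling these were 0 and 10, and 3 and 14.

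The 44 genes higher past 2-fold had a median BSA level of 1.504 CPM, with a few of far more reads. Rab17, a GTPase of epithelial recycling endosomes, was at 0.497, 0.800 and 0.683 CPM in BSA and 2.28, 1.98 and 1.498 CPM in BSA + luteolin (log2 fold change 1.54, standard error 0.36, adjusted p = 0.00271), and Exog, a mitochondrial nuclease, at 3.80, 3.30 and 3.12 and 7.36, 6.52 and 7.01 CPM (1.03). Sik1, a salt-inducible kinase, rose by less than 2-fold. It was at 14.1, 6.68 and 8.57 CPM in Control, 15.6, 14.7 and 16.3 CPM in BSA and 24.5, 28.2 and 36.1 CPM in BSA + luteolin (log2 fold change 0.93, standard error 0.12, adjusted p = 1.69e-05), and its 3 groups did not overlap. Gm26917, a long noncoding RNA that overlaps ribosomal RNA sequence, was at 55.7, 63.0 and 54.0 CPM in BSA and 192, 191 and 176 CPM in BSA + luteolin. Lars2, whose gene is known to collect reads of ribosomal RNA repeats, was at 300.4, 237 and 164 and 748, 623 and 295 CPM, and its groups overlapped. The sum of 5 such genes, chosen after their values were seen, was 322 to 541 CPM in BSA and 675 to 1577 CPM in BSA + luteolin, and its part in the results was not tested.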

How the data were processed

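RNA of 9 libraries (3 Control, 3 BSA, 3 BSA + luteolin, grouped by their labels) had been prepared with a stranded poly(A) kit. The authors deposited raw counts per gene, and the submitters' processing notes name STAR 2.7.0f and mm10. The annotation release, the strand setting and how multimapping reads were counted are not given in the sources used here. From these counts, genes with a median CPM above 1 over the 9 libraries were kept, TMM factors were computed, and BSA + luteolin was tested against BSA with edgeR's quasi-likelihood test (edgeR 4.0.16, R 4.3.3) on the 6 libraries, with Benjamini-Hochberg adjustment over all 11560 genes at 0.05. CPM values are TMM-normalized. Standard errors were derived from the coefficient and its F statistic. On counts simulated for this comparison over 11560 genes, 91% of 200 genes changed 2-fold were recovered, and 6.19% of calls were false. The simulated counts held no smaller changes and no trend with length, so these rates do not cover the small changes above.

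Named genes were up to 3 lower and 3 higher genes with the largest changes in each list, a set of defining genes, and the 20 lowest and 20 highest protein-coding genes outside the lists whose groups did not overlap. Genes labelled or drawn in the study's transcriptome figure were left out. Genes whose products it measured in other assays, such as Il4, Il6, Il13 and Ccl2, were kept. Other members named were chosen after their values were seen. The lists, and the comparison itself, were chosen with earlier results of these data known. Alternatives were limma trend (limma 3.58.1), DESeq2 1.42.0, other scalings and filters, Control libraries in the fit, a replicate block, removal of the gene length trend and leaving out each library. A filter and scaling, and a fit, without Control replicate 1 were added after the data were seen. No 2 libraries of a group were alike within counting noise (lowest chi-square per degree of freedom 3.82). Gene positions are of GENCODE for GRCm38, and promoter and microRNA sequences of RefSeq for GRCm38.p6. Some items withheld from this text are not reported here.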

Additional observations from a re-analysis of the deposited data

How the results depend on the processing

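Against 2562 lower and 2060 higher genes, 609 and 44 of them past 2-fold, the counts moved by over 1.5 times in these settings. The higher genes numbered 3857 with library size as the scaling and 3267 with upper-quartile factors, and from 1243 to 2290 when 1 library at a time was left out, where lower genes ranged from 2007 to 2781. With the Control libraries in the fit there were 917 lower and 176 higher genes, and 17 higher past 2-fold. With Control replicates 2 and 3 alone in that fit there were 2568 lower and 2032 higher genes. Genes lower past 2-fold numbered 404 with a median CPM above 5, and those higher past 2-fold numbered 14. Those higher past 2-fold numbered 72 with library size as the scaling and 91 with no filter. Fewer genes were tested under the stricter filter and more without one, and for the other settings the cause was not tested. By limma trend there were 2570 lower and 2059 higher genes, and by DESeq2 2468 and 1955.

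Of 277 named genes, Itga4 changed direction, to a log2 fold change of 0.0056 with the gene length trend removed, where 39 others no longer passed. With the Control libraries in the fit 125 no longer passed, and when 1 library was left out 8 to 41. The medians of 5 lists changed sign with library size as the scaling: the IgE receptor, cytokine receptor, eicosanoid receptor, interferon and ribosome biogenesis lists. The first, second and last of these also did so with upper-quartile factors, 6 lists did so with the length trend removed, 2 with a median CPM above 5, and 2 to 5 when 1 library was left out, 5 of them without BSA replicate 2 and 5 without BSA replicate 3. Of the lists whose medians changed without 1 library, those of TNF superfamily and NRF2 genes had medians of 0.01.

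Whether the replicate numbers in the labels pair the libraries was not settled. The correlations of same-numbered deviations from the group means were -0.024, 0.175 and 0.283. Those of libraries with different numbers ranged from -0.280 to 0.149. A fit with a replicate block called 2966 lower and 2602 higher genes, 611 and 44 past 2-fold, and 3 named genes passed in it that had not before.

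The 3-count level of 0.121 to 0.291 CPM limits the genes near it, such as Dusp2, and intervals beyond counting error rest on 3 libraries a group.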

Other observations

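Gene families were also counted by symbol or class after the values were seen. Of 190 solute carriers 35 were lower (18.4%) and 28 higher, and of 54 RAB GTPases 11 were lower (20.4%) and 8 higher, where 22.2% of all genes were lower and 17.8% higher. TRIM ubiquitin ligases were lower in 12 of 38 and higher in 4. GIMAP GTPases, known from lymphocytes, were lower in 3 of 5, with a sum of 353 to 400.2 CPM in BSA and at most 155 CPM in BSA + luteolin. Subunits of the vacuolar ATPase, which acidifies granules and lysosomes, were higher in 7 of 18 and lower in 1.

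By class, long intergenic RNAs were lower in 51 of 140 and higher in 6, with a median log2 fold change of -0.23. Antisense RNAs were lower in 34 of 109 and higher in 6. Processed pseudogenes went the other way, with 35 of 141 higher and 12 lower and a median of 0.21. That median was 0.02 with the gene length trend removed, and their median exonic length was 496 bases. How reads shared with their parent genes were counted is not given in the sources used here.

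Of the lists' genes 123 lay below the filter on low counts and have no test, 62 of them with more counts in BSA and 39 with more in BSA + luteolin. The genes given here were chosen after their values were seen. Rgs16, a regulator of G protein signals, had 111 counts over the BSA libraries and 10 over BSA + luteolin. Tslp, an epithelial alarmin gene, had 104 and 30, the inducible chaperone gene Hspa1a 90 and 7, and Gpr35, an orphan receptor gene, 61 and 4. In the other direction Siglece, a sialic acid receptor gene, had 61 and 103. The counts of the groups did not overlap in these 5 genes. Over all 11560 tested genes, the CPM values of the groups did not overlap in 50.3%.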
